A study of Oryza sativa with 12 samples.

Results

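Expression in root and shoot of wild-type rice (Oryza sativa, cultivar Nipponbare, labelled WT) was compared in 3 root and 3 shoot libraries. The loci compared were the rice locus identifiers that reached 1 FPKM or more in at least 3 of these 6 libraries. This held for 20577 of the 31003 locus identifiers in the deposited files. FPKM counts the sequenced fragments of a gene per kilobase of its length and is scaled to the depth of the library. The series asks how depletion of OsSPT5-1, a transcription elongation factor, changes expression in both organs. It also holds 3 root and 3 shoot libraries of the mutant line osspt5-1#12, which are used below only as another set of root and shoot libraries. Plants of all groups grew in a chamber whose day lasted 15 h at 28 °C and whose night lasted 9 h at 24 °C, with the air at 70% humidity, and no other treatment is labelled. The labels give neither the age of the plants nor the parts of the shoot taken, and they do not say whether replicates came from separate plants. The p-values therefore reflect variation among these libraries, part of which may be technical.

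As background, shoot and root divide the work of a vegetative rice plant. The shoot captures light, fixes carbon and carries the leaf-forming meristem, and the root takes up water and mineral nutrients and anchors the plant in the soil. Each organ mixes many cell types, so in bulk RNA fewer cells of a type and less RNA per cell cannot be told apart. The deposited files list identifiers without gene names. In the RefSeq gene table of assembly ASM3414082v1, 1 of the 38034 identifiers was found, in an entry that carried no gene name. The functions of the loci were therefore not assigned, the organ labels were not checked on marker genes, and only 2 identifiers higher in root and 2 with shoot above root are named.

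The 6 libraries fell apart by organ. Across loci, Pearson's r of the log2(FPKM + 1) levels was 0.977 to 0.983 between root libraries and 0.915 to 0.962 between shoot libraries. Between a root and a shoot library it was 0.683 to 0.747. Recovered depth was 10118071 to 13524346 reads in root and 14937501 to 15127186 in shoot. A library held 18240 to 19847 loci at 1 FPKM or more. The organs overlapped in this number: root libraries had 19417 to 19847 and shoot libraries 18240 to 19746. Shoot library 2 stood apart from the other shoot libraries. At 1309 loci (6.36%) it lay at least 2-fold above or below both other shoot libraries, against 683 loci for shoot library 1, 280 for shoot library 3 and 52 to 181 for a root library. Root library 1 was the shallowest, and 1.88% of its reads lay on short rows whose identifiers start with EPl, against at most 0.336% in the other 5 libraries. Replicates differed at least 2-fold at 3590 loci in shoot and at 919 loci in root.

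Root and shoot of WT plants differed at a large share of loci, in both directions. Of the 20577 loci, 9047 passed the test (44.0%, limma with Benjamini-Hochberg adjustment, threshold 0.05). Root had the higher level at 4955 of them (24.1%) and shoot at 4092 (19.9%). The median difference, root minus shoot on the log2(FPKM + 1) scale, was 1.19 for the loci called higher in root and −1.47 for those called higher in shoot, and 0.14 for all loci. Differences of at least 2-fold on this scale were called at 5901 loci (28.7%), 2960 with root above and 2941 with shoot above. The libraries of both organs did not overlap at 12057 loci (58.6%), with root above shoot at 6860 (33.3%) and shoot above root at 5197 (25.3%). Median-ratio factors moved the median of all loci to 0.025 and turned the majority, with 4192 loci above in root and 4598 above in shoot. Which organ had more loci above the other is therefore relative to the scaling.

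**Figure D1:**
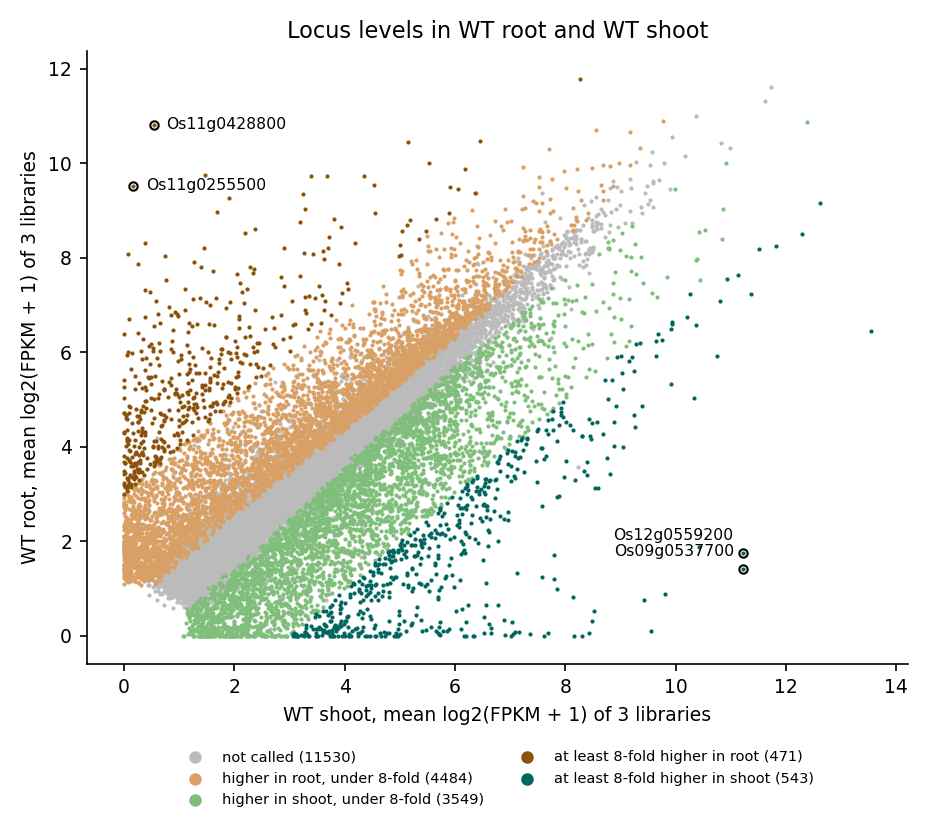
Each point is 1 of 20577 loci, with its mean log2(FPKM + 1) over 3 WT shoot libraries on the x axis and over 3 WT root libraries on the y axis. Colours separate loci that were not called (11530), loci called in either direction and the 471 and 543 loci at least 8-fold higher in root and in shoot, which lie far from the diagonal, and circles mark the 4 named loci.

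The filter itself contributed part of these calls. At 1866 loci only 1 organ reached 1 FPKM, 1024 in all 3 root libraries alone and 842 in all 3 shoot libraries alone. Such loci had to differ, and 1771 of them were called. The 18711 loci that passed with libraries of both organs gave 7276 calls, 38.9% of them, 3984 with root above and 3292 with shoot above. Loci just inside the rule, at 1 FPKM in exactly 3 libraries, numbered 2175 and had a median mean level of 1.57 FPKM. Those just outside, at 1 FPKM in exactly 2 libraries, numbered 955 and had a median of 0.847 FPKM. Of the 10426 loci that did not pass, 1038 had no read in any of the 6 libraries.

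At many loci the organ difference was bounded on the log scale used for the test. At 8991 loci (43.7%) the 95% interval of the difference on this scale lay within 2-fold in either direction. The scale understates fold differences of low loci, so at these an interval within 2-fold does not bound the ratio of FPKM within 2-fold. How many of the 8991 loci this concerns was not tested. The 8991 loci included 1172 that were called, so their difference passed the test but was small on this scale. Of the 11530 loci that were not called, 7819 had an interval within 2-fold on this scale. The interval of the other 3711 reached 2-fold or more, so these data do not bound their difference within 2-fold.

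The share of called loci was highest among loci at high levels. Loci were split into 10 bins of equal size by mean level. In the lowest bin, with a mean of 0.55 to 1.7 FPKM over the 6 libraries, 41.8% were called. In the next bin, 37.8% were called, and in the highest bin, at 65 FPKM and above, 54.7%. The share higher in root was 25% in the lowest bin, reached its lowest value of 19.6% in bin 4 and was 32.3% in the highest bin. The share higher in shoot was 16.8%, 19.8% and 22.4% in the same bins. Loci at high levels rest on more reads and have less counting error, so the level and the precision move together here, and their parts in this pattern were not tested. Loci with only 1 organ at 1 FPKM had to differ, and 1771 of these 1866 were called. Loci at 1 FPKM in exactly 3 libraries, which include them, had a median mean level of 1.57 FPKM, inside the lowest bin. The part of the filter in the share of each bin was not tested.

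The organ-preferred loci were those called and at least 8-fold apart on the log2(FPKM + 1) scale, a difference of 3 or more. There were 471 such loci on the root side (2.29%) and 543 on the shoot side (2.64%). Among the loci that passed the filter with libraries of both organs there were 285 and 355, and the rest passed through the organ where they are high and had to differ. In root, the root-preferred loci had mean levels from 7.47 to 3640 FPKM with a median of 38.4, and 105 of them reached 100 FPKM. Their median level in shoot was 1.11 FPKM, and 227 of them stayed under 1 FPKM there. In shoot, the shoot-preferred loci had mean levels from 7.41 to 12000 FPKM with a median of 51.5, and 159 reached 100 FPKM. Their median level in root was 1.97 FPKM, and 210 of them stayed under 1 FPKM there. The numbers depend on the scale: with a pseudocount of 0.1 in place of 1, 1060 loci were at least 8-fold higher in root and 1058 in shoot.

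The level left in the other organ varied widely among the organ-preferred loci. As a share of the level in the preferred organ, the mean level in the other organ had a median of 2.78% for root-preferred loci, with a 10th percentile of 0.297% and a 90th percentile of 8.44%. For shoot-preferred loci the median was 4.42%, the 10th percentile 0.0687% and the 90th percentile 9.65%.

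Os11g0428800, on chromosome 11, had the largest difference on the root side on the log2(FPKM + 1) scale and ranked 7 among all loci in root by mean level. Os11g0255500 was above it under a pseudocount of 0.1 (log2 differences of 12.04 against 11.69) and under limma-voom (13.42 against 11.86). Os11g0428800 had 1680, 1649 and 2106 FPKM in root libraries 1, 2 and 3, and 0.521, 0.615 and 0.262 FPKM in shoot libraries 1, 2 and 3. All root libraries were high and all shoot libraries close to 0, resting on 16 reads in the 3 shoot libraries together. The means of 1812 ± 256 and 0.466 ± 0.183 FPKM (SD, n = 3) differed 3890-fold, with a log2 difference of 10.27 (SE 0.15, limma adjusted p = 1.68e-06).

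Os11g0255500, also on chromosome 11, had 534.1, 739.3 and 990.9 FPKM in root libraries 1, 2 and 3. In shoot it had 0 FPKM in libraries 1 and 3 and 0.419 FPKM in library 2, from 8 reads. Non-overlap of the organs in WT was a condition for naming a locus, here and for the other named loci. The root libraries differ by less than 2-fold among themselves. The means of 754.7 ± 229 FPKM in root and 0.14 ± 0.242 FPKM in shoot (SD, n = 3) differed 5403-fold, and 3602-fold without shoot library 1. Without shoot library 2 the locus was at least 9701-fold higher in root, against a floor of 3 reads over the remaining shoot libraries. The log2 difference was 9.35 (SE 0.26, limma adjusted p = 1.34e-05).

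Os09g0537700, on chromosome 9, had the largest difference on the shoot side on the log2(FPKM + 1) scale and ranked 10 among all loci in shoot. Its levels were 2947, 2908 and 1572 FPKM in shoot libraries 1, 2 and 3, and 1.57, 0.276 and 4.86 FPKM in root libraries 1, 2 and 3. Shoot library 3 was the lowest of the shoot libraries, and the 3 root libraries spread widely at a low level. The means of 2476 ± 783 and 2.23 ± 2.36 FPKM (SD, n = 3) differed 1109-fold, 770.8-fold without root library 2 and 2686-fold without root library 3. The log2 difference was −9.80 (SE 0.56, limma adjusted p = 6.43e-05).

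Os12g0559200, on chromosome 12, ranked 11 in shoot. It had 2515, 2616 and 2030 FPKM in shoot libraries 1, 2 and 3, and 1.99, 1.53 and 4.06 FPKM in root libraries 1, 2 and 3. Root library 3 was again the highest of the root libraries. The means of 2387 ± 313 and 2.53 ± 1.34 FPKM (SD, n = 3) differed 943.7-fold, with a log2 difference of −9.46 (SE 0.27, limma adjusted p = 1.34e-05). The recovered gene length was 762 bases for Os11g0428800, 1278 for Os11g0255500, 1072 for Os09g0537700 and 3420 for Os12g0559200.

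**Figure D2:**
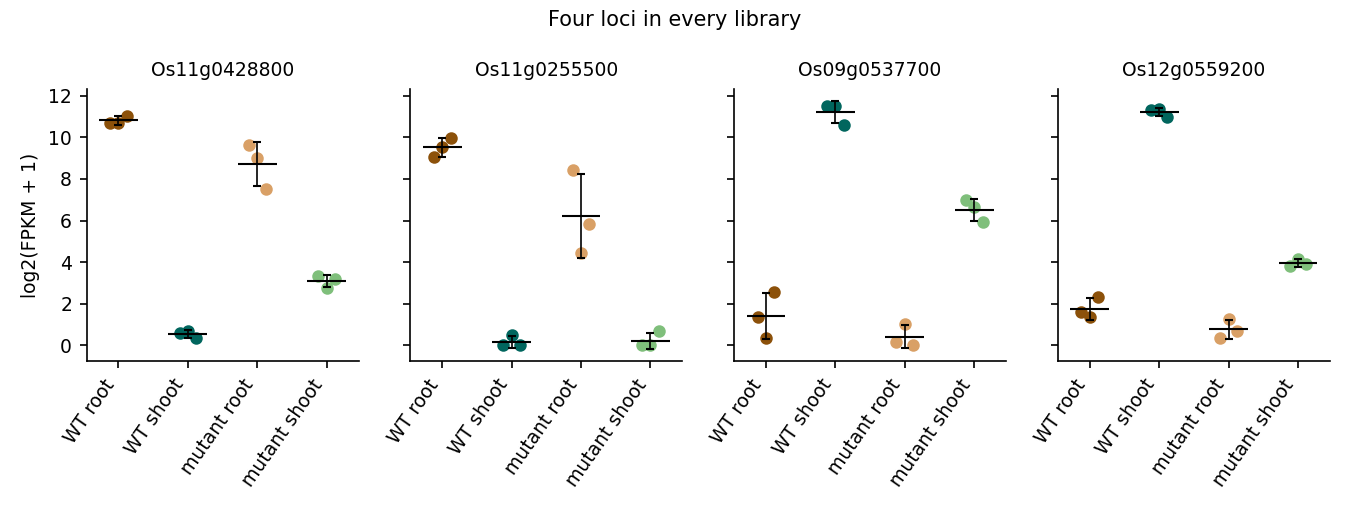
Points give log2(FPKM + 1) of the 4 named loci in each of 12 libraries, 3 per group, with the mean as a horizontal line and the SD on the log2 scale as a bar. In WT the preferred organ lies above 9 and the other organ below 3 on this scale, and in the mutant the same organ is the higher one at each locus.

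Some loci were read in a single organ. There were 119 loci at 1 FPKM or more in every shoot library without a read in root, with a median level of 4.29 and a highest level of 330 FPKM, and 36 of them reached 10 FPKM. On the root side, 71 loci were at 1 FPKM or more in every root library without a read in shoot, with a median of 3.09 and a highest level of 84.9 FPKM, and 11 reached 10 FPKM. A count of 0 at a locus of 1 kb allows up to 0.198 to 0.296 FPKM in a library, for counting error only. Both counts ask for a condition in every library, so leaving out a library can only keep or raise them. The shoot-alone count was 136, 183 and 131 without shoot library 1, 2 and 3. Without root library 1, 2 and 3 it was 143, 142 and 159. The root-alone count was 107, 108 and 105 without shoot library 1, 2 and 3. Without root library 1, 2 and 3 it was 82, 79 and 88. In the mutant, 73 of the 119 loci were without a read in root as well, and 37 of the 71 were without a read in shoot. The others had at most 18 reads in the 3 mutant root libraries together and at most 322 in the 3 mutant shoot libraries. These 73 loci are the tested loci that the root files did not list, and the 37 are those that the shoot files did not list. Such loci were set to 0 there in both genotypes. Whether they had no read or were left out for another reason is not stated, so their zeros are not separate measurements.

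Expression was more concentrated on leading loci in shoot than in root. The 10 highest loci took 6.02% to 9.73% of the summed locus FPKM in shoot libraries and 3.32% to 3.89% in root libraries, without overlap. The highest locus reached 10074 to 14989 FPKM in shoot and 3078 to 4707 FPKM in root. It took 899 loci to reach 50% of the sum in shoot library 2, 1193 and 1227 in the other shoot libraries, and 1213 to 1432 in root libraries. By this number shoot and root libraries overlap. The 1000 highest loci took 46.6% to 51.7% in shoot libraries and 43.2% to 46.4% in root libraries, again without overlap but with a narrow gap. With 3 libraries per organ an exact permutation test cannot go below a two-sided p of 0.1, so no test was made.

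**Figure D3:**
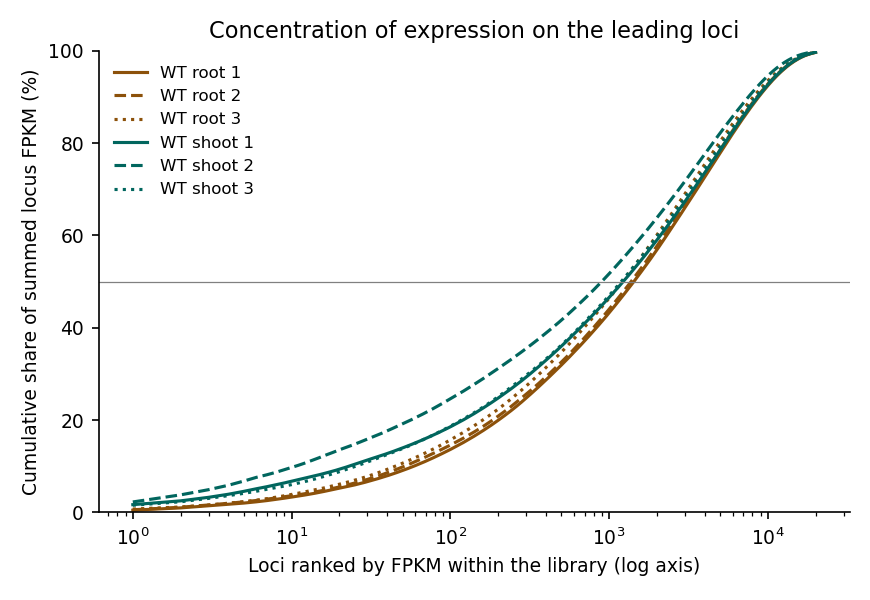
Lines show the cumulative share of summed locus FPKM, in percent, against loci ranked by FPKM on a log axis, 1 line per WT library. The 3 shoot lines run above the root lines over the first 100 ranks (18.5% to 24.6% against 13.6% to 15.7%), and shoot library 2 is the steepest.

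The organ-preferred loci carried a visible part of each organ's expression. The 543 shoot-preferred loci held 14.4%, 21.6% and 15% of the summed locus FPKM in shoot libraries 1, 2 and 3 and 0.894% to 1.17% in root libraries. The 471 root-preferred loci held 7.47%, 8.08% and 9.2% in root libraries 1, 2 and 3 and 0.317% to 0.406% in shoot libraries. These loci were chosen on the same libraries, so these shares describe them and test nothing. Shoot library 2, which stood apart from the other shoot libraries, was also the one with the highest share on shoot-preferred loci.

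The most abundant loci of both organs partly coincided. Of the 100 loci with the highest mean FPKM in root and the 100 highest in shoot, 34 were shared. In the root list 57 loci were called higher in root, 5 higher in shoot and 38 were not called, and 21 were root-preferred at 8-fold or more. In the shoot list 67 loci were called higher in shoot, 4 higher in root and 29 were not called, and 40 were shoot-preferred. The median level of the root list was 732 FPKM in root and 410 FPKM in shoot, and that of the shoot list was 779 FPKM in shoot and 251 FPKM in root.

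Organ-preferred loci lay on all 12 chromosomes, as read from the identifiers. The share of tested loci that were called ran from 42.1% on chromosome 9 to 46% on chromosome 11, close to the 44.0% of all loci. Root-preferred loci made up 4.13% of the tested loci of chromosome 11 (49 loci), 3.79% of chromosome 10 (39 loci) and 3% of chromosome 8 (41 loci), and 1.47% to 2.19% of each other chromosome. Shoot-preferred loci made up 3.64% of chromosome 12 (43 loci) and 3.13% of chromosome 4 (57 loci), with the lowest share, 1.94% (20 loci), on chromosome 10. Chromosome 10 thus had a share of root-preferred loci above that of all chromosomes and the lowest share of shoot-preferred loci. Whether chromosomes differ in these shares was not tested.

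**Figure D4:**
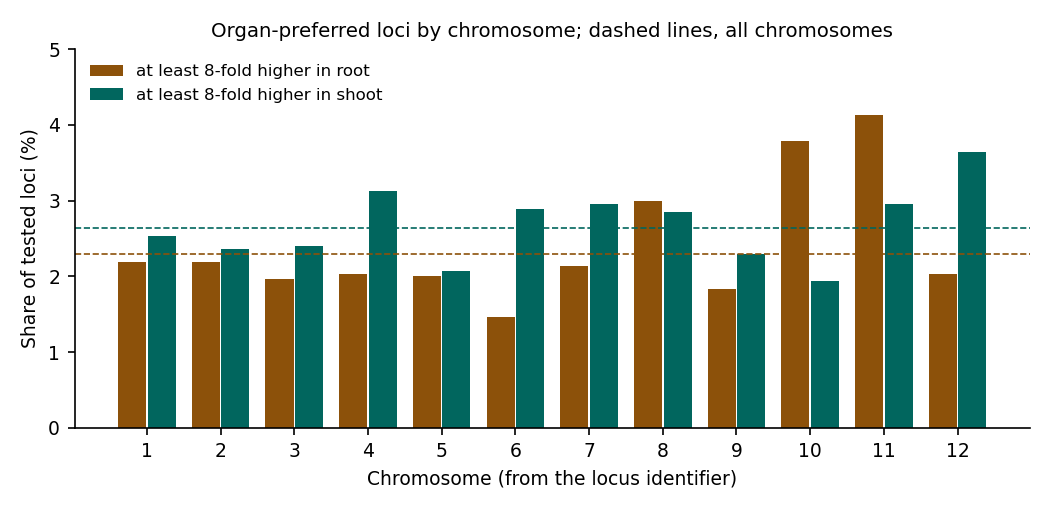
Bars show, for each chromosome, the share of tested loci in percent that were called and at least 8-fold higher in root or in shoot, and dashed lines show the shares over all chromosomes, 2.29% and 2.64%. Root bars are tallest on chromosomes 11 and 10, and shoot bars on chromosomes 12 and 4.

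Part of the organ-preferred loci were neighbours. Rice locus identifiers are numbered along the chromosome, so neighbours here are tested loci that follow each other by number. Of the 471 root-preferred loci, 106 (22.5%) stood in 43 runs of at least 2 root-preferred neighbours, 28 of them pairs, 12 of 3 loci and 3 longer. Of the 543 shoot-preferred loci, 104 (19.2%) stood in 46 such runs, 37 of them pairs, 7 of 3 loci and 2 longer. The longest run held 6 root-preferred loci on chromosome 8, with 25.1 to 277 FPKM in root, 0.661 to 9.47 FPKM in shoot and log2 differences from 3.81 to 7.29. A run of 4 on chromosome 12 had 29.4 to 231 FPKM in root and 0.0806 to 1.71 FPKM in shoot, and a run of 4 on chromosome 10 had 34.3 to 952 FPKM in root and 0.916 to 92.8 FPKM in shoot. On the shoot side, 5 neighbours on chromosome 5 had 10.5 to 134 FPKM in shoot and at most 0.501 FPKM in root, and 4 neighbours on chromosome 12 had 51.8 to 200 FPKM in shoot and at most 1.36 FPKM in root. Loci that were not tested can lie between such neighbours: the run on chromosome 10 spanned 2000 locus numbers and that on chromosome 5 spanned 1800. Whether organ-preferred loci stand in runs more often than other tested loci was not tested. Neighbours can be near-identical copies that share reads, and the library kit does not mark strand, so levels of single loci within a run are uncertain.

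The recovered gene length was shorter for organ-preferred loci. The median was 1247 bases for the root-preferred loci (25th to 75th percentile 779 to 1648) and 1234 bases for the shoot-preferred loci (919 to 1755). It was 1545 bases for called loci under 8-fold, 1625 bases for loci that were not called and 1572 bases for all tested loci (1047 to 2263). At the same FPKM a shorter locus rests on fewer reads, and the part of this in the lengths was not tested. The groups also differ in level by choice, because the 8-fold threshold asks for a high level in 1 organ. Root-preferred loci had at least 7.47 FPKM in root and shoot-preferred loci at least 7.41 FPKM in shoot. Tested loci reached down to a mean of 0.55 FPKM over the 6 libraries. Lengths were not compared at matched levels. Lengths were recovered for at least 99.4% of each group.

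The mutant libraries give the same contrast in 6 libraries that the WT comparison did not use. In osspt5-1#12, root minus shoot, 4506 of the 20577 loci were called (21.9%, limma, adjusted p under 0.05). Root was above shoot at 1720 of them (8.36%) and shoot above root at 2786 (13.5%). Of the 9047 loci called in WT, 8295 (91.7%) had the same sign in the mutant, against 66.2% of the loci not called in WT. Called in both genotypes with the same direction were 3627 loci, 40.1% of the WT calls and 80.5% of the mutant calls, and 43 of the WT calls were called in the opposite direction. Mutant root libraries spread more than WT root libraries: the median SD over loci of log2(FPKM + 1) was 0.439 in mutant root, 0.187 in WT root, 0.168 in mutant shoot and 0.242 in WT shoot. The part of this spread in the number of mutant calls was not tested.

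The organ-preferred loci kept their side in the mutant at most positions. Of the 543 shoot-preferred loci, 535 (98.5%) had the same sign in the mutant, 495 (91.2%) were called higher in shoot and 0 were called higher in root (limma, with 1 locus at an unadjusted p under 0.05 in that direction). Their median difference was −3.64 in WT and −3.03 in the mutant on the log2(FPKM + 1) scale. Of the 471 root-preferred loci, 458 (97.2%) had the same sign, 275 (58.4%) were called higher in root and 6 were called higher in shoot. Their median difference was 3.88 in WT and 2.44 in the mutant, with a 10th percentile of 0.91 and a 90th percentile of 4.31. Over all tested loci 54.8% had the sign of root higher in the mutant and 45.2% that of shoot higher, with a median of 0.08. The loci were chosen for a large difference in WT, which can make values in other libraries smaller, and these libraries also differ in genotype. The parts of the choice and of the genotype in the smaller differences were not tested.

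**Figure D5:**
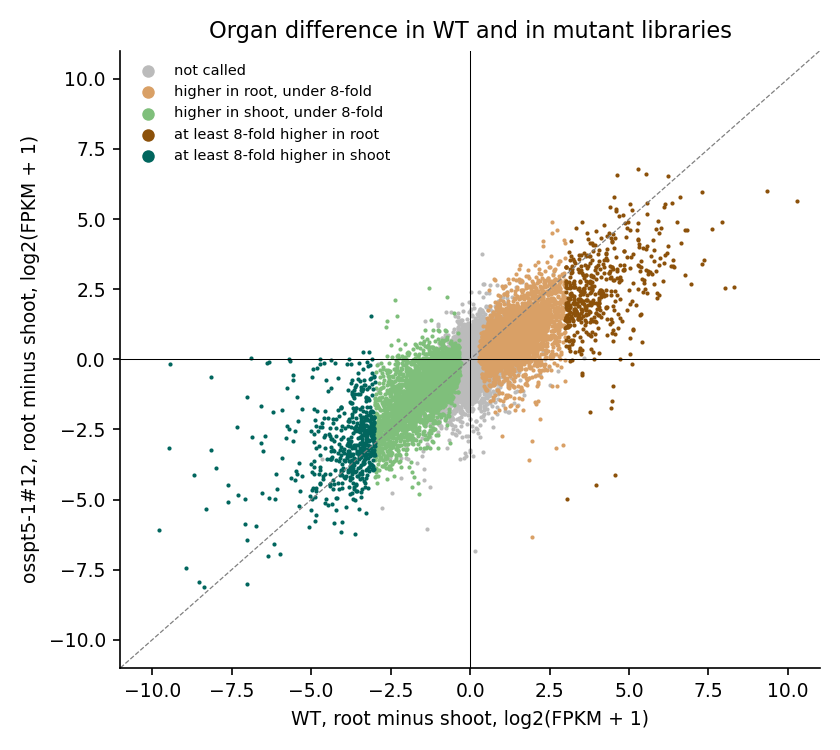
Each point is 1 of 20577 loci, with root minus shoot on the log2(FPKM + 1) scale in WT on the x axis and in osspt5-1#12 on the y axis, the dashed line marking equal differences. Most shoot-preferred loci (median −3.03 in the mutant) and root-preferred loci (median 2.44) lie in the same quadrant in both genotypes.

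The 4 named loci had the same direction in the mutant, with smaller differences. At all 4 the mean level in the preferred organ was lower in the mutant than in WT. In root it was 495.9 against 1812 FPKM for Os11g0428800 and 139.4 against 754.7 FPKM for Os11g0255500. In shoot it was 93.9 against 2476 FPKM for Os09g0537700 and 14.5 against 2387 FPKM for Os12g0559200. These differences between genotypes were not tested here. Os11g0428800 had 787, 517.9 and 182.8 FPKM in mutant root libraries and 9.14, 5.75 and 8.04 FPKM in mutant shoot libraries (log2 difference 5.63, SE 0.54, limma adjusted p = 0.00175). Os11g0255500 had 342.4, 20.6 and 55.1 FPKM in mutant root and 0, 0 and 0.59 FPKM in mutant shoot (log2 difference 6, SE 0.98, limma adjusted p = 0.00918). The root libraries of the mutant thus spread widely at both loci, and every one of them lay above every mutant shoot library. Os09g0537700 had 124.7, 97.8 and 59.1 FPKM in mutant shoot and 0.13, 1.04 and 0 FPKM in mutant root (log2 difference −6.10, SE 0.4, limma adjusted p = 0.000632). Os12g0559200 had 13, 16.7 and 13.9 FPKM in mutant shoot and 0.284, 1.39 and 0.622 FPKM in mutant root (log2 difference −3.18, SE 0.3, limma adjusted p = 0.0017).

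In the runs of neighbours, the 5 shoot-preferred loci on chromosome 5 and the 4 on chromosome 12 were all called higher in shoot in the mutant too, with differences from −7.03 to −2.92 and from −6.46 to −4.30. Of the 6 root-preferred neighbours on chromosome 8, 5 were called higher in root in the mutant, with differences from 2.61 to 3.65. All 4 on chromosome 10 were called, with differences from 2.74 to 5.43. Of the 4 root-preferred neighbours on chromosome 12, 0 passed the test in the mutant, although their differences were 3.16 to 3.37 (limma adjusted p = 0.135 to 0.202, with 2 of 4 at an unadjusted p under 0.05).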

How the data were processed

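Each library has a file of its own, and its deposited values are FPKM, per the file headers. Genome build IRGSP-1.0 and the tools Bowtie2 2.2.3, HTSeq 0.6.0 and HISAT2 2.1.0 stand in the submitters' processing notes, which give no order of use. For the annotation release and for filters there is no statement in the labels or file headers. The kit (NEBNext Ultra RNA, per the labels' protocols, with 2 µg of total RNA as input) does not mark strand.

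A row missing from the files of 1 organ was set to 0 there. Reads and gene lengths were recovered from the FPKM values, because each value of a row is a whole number of reads times a constant (100% of rows whole within 0.002 reads, 98.2% of lengths within 0.05 bases of a whole number; for sparse rows this is no check). Depth was 10118071 to 15127186 reads per WT library.

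The 22865 rows of any kind that reached 1 FPKM in 3 or more of the 6 WT libraries were fitted in one model (R 4.3.3, limma 3.58.1 with trend, group means only, log2(FPKM + 1), Benjamini-Hochberg, adjusted p under 0.05), and the 20577 locus rows among them are described. Fold changes on this scale understate those of low loci. The mutant libraries were fitted apart, on the same rows. The fit and the recovery were tested on simulated data.

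The members, tests and lists were chosen with earlier results of these data known. Lists of known genes by product name were not used here, because the identifiers were not paired with names. Named loci are the 2 with the largest difference in each direction among called loci whose libraries do not overlap. Alternatives were another pseudocount, other filters, other scalings, all 12 libraries, a replicate block, limma-voom on recovered reads and leaving out each library.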

Additional observations from a re-analysis of the deposited data

How the results depend on the processing

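The number of called loci (9047) lay between 7065 and 9442 under the alternatives for filter, scaling, pseudocount, samples, block and test. The filters changed the number of tested loci, so their counts of calls are not directly comparable. A filter at 5 FPKM gave 7065 calls of 14596 loci, and no filter gave 9409 of 29965. Rows listed in both organs gave 8893 of 20467. Without single libraries it lay between 7129 and 9122 (3719 to 5218 higher in root, 3410 to 3984 higher in shoot). Asking for at least 2-fold gave 5901 called loci, 2960 of them higher in root. Root had the majority of calls under every alternative run except median-ratio factors (4192 against 4598); with the 2-fold condition 2941 were higher in shoot. The counts of loci 8-fold higher in root and in shoot were 1060 and 1058 with a pseudocount of 0.1 and 1166 and 1104 with limma-voom on recovered reads, since neither compresses low levels as log2(FPKM + 1) does; without single libraries they were 460 to 500 and 488 to 579. The calls shared with the mutant libraries were 3627, and 3302 to 3587 without single libraries.

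With a replicate block 8803 loci were called, 8357 of them among the 9047. Same-numbered root and shoot libraries had deviations that correlated at 0.14, 0.044 and 0.217, and differently numbered ones at −0.208 to 0.080. The labels do not say whether same-numbered libraries share plants. Pairing was therefore not settled, and the main fit did not use the numbers. The 4 named loci kept their direction and their call in all 16 alternatives each, with limma adjusted p from 6.02e-08 to 0.000276 for Os11g0428800, 4.75e-06 to 0.000353 for Os11g0255500, 3.26e-07 to 0.000995 for Os09g0537700 and 9.42e-09 to 0.00038 for Os12g0559200. The named loci were chosen for the largest called differences in the same libraries. Every alternative reuses these libraries, so this describes the named loci and tests nothing. The numbers of loci read in a single organ rose when any single WT library was left out, as given above. Single outlying libraries were described by their distance from their replicates and were not tested.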
